A study of Homo sapiens with 60 samples.

Results

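Cadherins and protocadherins are calcium-dependent adhesion proteins of the cell surface. Their genes were chosen by symbol (CDH followed by a number, or any name starting with PCDH), antisense, divergent and pseudogene names left out, and by level, with at least 1 CPM (the assigned reads of a gene scaled to a library total of 1e+06) in 3 or more of 60 libraries. Of 98 matching names 9 were left out, which gave 89 genes, and 58 of these 89 passed the rule on level, among 15263 genes of the whole table that passed it. The libraries came from SH-SY5Y, a human neuroblastoma line that can be driven towards a neuron-like state, plated at passage 39 and put through 1 published differentiation protocol. Lead (Pb) at 0, 0.16, 1.26 or 10 µM was present from day 5 onward and renewed with the medium. Collection days were 6, 9, 12, 15 and 18, and 3 dishes per day and dose gave 20 groups of 3 libraries. All groups share the cell line, its wild-type label, the passage and the protocol, and the 4 dose groups of a day differ only in the Pb concentration, the Pb-free group being labelled 0 µM. The dishes are replicates of 1 line, so p-values measure the spread between dishes.

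Classical cadherins join neighbouring cells by binding the same cadherin on the next cell and are tied to actin by catenins. The non-clustered protocadherins are single genes with a weaker adhesive role in axon guidance and circuit formation. The clustered protocadherins lie in an alpha, a beta and a gamma array on chromosome 5, in which each variable first exon has a promoter of its own. In the alpha and gamma arrays this exon is spliced to constant exons shared by the array, whereas beta genes are single exons. A neuron uses a few of these promoters, through CTCF and cohesin, and the chosen set gives the cell an identity by which its own branches avoid each other, while the C-type isoforms of the alpha and gamma arrays are used more uniformly.

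The promoters of the clustered genes are shown first because each gene is read from its own start. Most of them are known to hold a conserved sequence element with a CGCT core, which has been described as lacking in PCDHAC2, PCDHB1, PCDHGC4 and PCDHGC5. Windows of 50 bases from the plus strand of RefSeq GRCh38.p14 follow, written 5′ to 3′, for genes on which the results turn and for PCDHB1 and PCDHGB3, which did not pass the rule on level. Capitals mark CGCT by its letters alone, which need not be the conserved element. In PCDHGB7 the bases just before the mark match those that follow CGCT in the promoter of PCDHGB6.
PCDHA4, chr5:140806973-140807022: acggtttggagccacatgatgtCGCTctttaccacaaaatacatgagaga
PCDHA8, chr5:140841124-140841173: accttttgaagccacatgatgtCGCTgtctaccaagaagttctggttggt
PCDHAC1, chr5:140926214-140926263: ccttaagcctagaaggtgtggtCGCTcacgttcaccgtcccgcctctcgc
PCDHAC2, chr5:140966359-140966408: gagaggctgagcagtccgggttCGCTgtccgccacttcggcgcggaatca
PCDHB1, chr5:141051268-141051317: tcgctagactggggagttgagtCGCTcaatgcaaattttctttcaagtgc
PCDHB3, chr5:141100387-141100436: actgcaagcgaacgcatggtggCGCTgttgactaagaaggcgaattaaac
PCDHB14, chr5:141223257-141223306: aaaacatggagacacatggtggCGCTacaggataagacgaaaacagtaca
PCDHGB3, chr5:141370156-141370205: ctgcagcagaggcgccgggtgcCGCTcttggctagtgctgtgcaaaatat
PCDHGA7, chr5:141382643-141382692: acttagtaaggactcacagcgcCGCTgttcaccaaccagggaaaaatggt
PCDHGB7, chr5:141417601-141417650: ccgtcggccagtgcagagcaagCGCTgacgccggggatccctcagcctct
PCDHGC3, chr5:141475874-141475923: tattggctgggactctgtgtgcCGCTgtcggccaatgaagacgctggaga
PCDHGC4, chr5:141484946-141484995: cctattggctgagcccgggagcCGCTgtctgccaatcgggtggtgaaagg

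RefSeq promoters were given for 47 of the 53 clustered genes. CGCT stood within the 100 bases before the start, on the strand of the gene, in 44 of these 47 (93.6%), against 28.1% of all 35116 promoters. On either strand the shares were 93.6% and 44.8%. Longer runs around the core, read from these windows after the fact and each holding CGCT, went with the array. On either strand within the same 100 bases GATGTCGCT stood in 9 of 11 promoters of alpha genes other than the C-type and in 0.0342% of all promoters, GGTGGCGCT in 12 of 14 beta promoters and in 0.214%, and CGCTGTT in 12 of 18 gamma A and B promoters and in 0.703%. A match is a run of letters and not a bound site. PCDHGB3 holds the letters CGCT and had at most 0.601 CPM in any library. PCDHB1, PCDHAC2 and PCDHGC4 hold these letters although the element has been described as lacking there, and PCDHB1 had at most 0.609 CPM in any library.

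Depth ran from 16594259 to 50539599 reads assigned to genes per library, so 3 reads stood for 0.0594 to 0.181 CPM, a floor that covers counting error only. In 2 libraries long transcripts were low, with a slope of log2 level on log10 transcript length of -0.514 in replicate 1 of day 18 at 0 µM and of -0.487 in replicate 3 of day 6 at 10 µM, while the next lowest was -0.193. Replicates 2 and 3 of day 18 at 0 µM had slopes of -0.174 and 0.0136. The day 18 libraries with Pb had 0.00654 to 0.136. Leaving out replicate 1 thus does not make the Pb-free and Pb libraries of day 18 alike in this slope. Named day 18 differences that lost the call or moved by over 1.5 times without the first of these libraries are given both ways. All day 18 libraries carry another prefix in their names than those of days 6 to 15. What the prefix stands for is not given in the sources used here, and it cannot be told apart from time in any comparison of day 18 with day 6, while doses were compared among libraries of 1 prefix. Summed over 10 neuronal markers the libraries had 3906 to 4002 CPM at day 6 and 6430 to 6985 CPM at day 18 without Pb. Summed over 8 epithelial markers they had 4.78 to 5.08 CPM at day 6 and 99.6 to 155 CPM at day 18.

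The 58 genes were 10 cadherins, 7 non-clustered protocadherins and 41 of the 53 clustered protocadherins. The classical type I cadherins kept 4 of 5 genes, the type II cadherins 5 of 13, the remaining cadherins 1 of 5 and the delta protocadherins 5 of 11. PCDH12 and PCDH15 were both kept. The alpha array kept 10 of 15, the beta array 15 of 16 and the gamma array 16 of 22. Just inside the rule, by the third-highest CPM of all libraries, were PCDHA7 with 1.00, PCDHB5 with 1.02 and PCDHGA10 with 1.04, and just outside were PCDHGB4 with 0.833, PCDH8 with 0.804 and PCDHGB6 with 0.738. Of the 31 genes not kept, 28 had a read in at least 1 library and none was above 1.10 CPM. Among them was CDH1, E-cadherin of epithelia, with at most 0.723 CPM. Of the kept genes 31 reached a group mean of 5 CPM and are named below, and the other 27 had highest group means between 0.874 and 4.78 CPM.

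To rank different genes their levels were divided by length, as CPM per kb of exon that GENCODE 29 assigns to no other gene. The exons of all annotated transcripts of a gene were joined for this length, so the ranks depend on the annotation. CDH11 had 13127 such bases and PCDH9 30800. At day 6 without Pb, CDH2 (N-cadherin, the main cadherin of neural tissue) had the highest such level, 48.9 ± 1.20 CPM per kb (SD, n = 3). The gamma genes PCDHGB7, PCDHGC3 and PCDHGA7 followed with 37.0 ± 2.88, 31.1 ± 0.606 and 19.6 ± 0.759 CPM per kb. PCDHGC4, a C-type gamma isoform known for its part in neuron survival, came next with 16.9 ± 1.31 CPM per kb, followed by PCDHB3 with 14.0 ± 0.415 and PCDHAC2 with 13.3 ± 1.21. The last 2 overlapped within their SDs. CDH11, a type II cadherin of mesenchyme and neural crest, had 3.33 ± 0.380 CPM per kb and stood beside PCDH18 with 3.44 and PCDH1 with 3.34, closer than their spread. By day 12 the level of CDH11 was 14.2 ± 0.443 CPM per kb and that of PCDHGC4 was 3.81 ± 0.211, so their order had turned.

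A few isoforms held most of the reads of the alpha and gamma arrays, in shares of reads that are not divided by length. At day 6 without Pb, PCDHGB7, PCDHGC3, PCDHGA7 and PCDHGC4 made up 92.8% of all gamma reads. PCDHAC2, PCDHA4, PCDHA8 and PCDHAC1 made up 80.4% of alpha reads at day 6 and 85.5% at day 18. Beta reads were spread more evenly, and PCDHB14, with the most reads of any beta gene, held 19.4 ± 0.617% of them at day 6 (SD, n = 3). Per kb PCDHB14 had 9.87 ± 0.233 CPM and stood below PCDHB3. The order of the 53 clustered genes at day 6 had a Spearman coefficient with the order at days 9, 12, 15 and 18 of 0.981, 0.967, 0.963 and 0.966, a description across genes in shared libraries. The counting rule for the shared constant exons was not given in the sources used here, and a member of the alpha array had no read in 46 libraries, of the gamma array in 18 and of the beta array in 9.

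**Figure D1:**
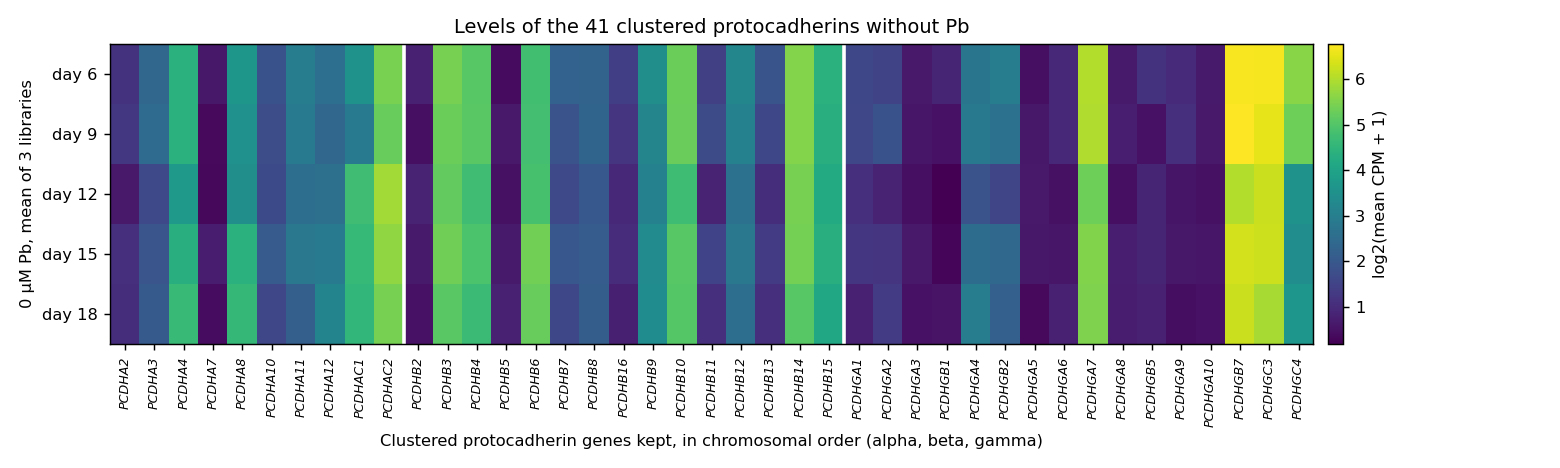
Levels of the 41 clustered protocadherins without Pb, as the log2 of mean CPM plus 1 over 3 libraries, not divided by length (colour), with days in rows and genes in chromosomal order in columns. The bright columns of PCDHGB7, PCDHGC3 and PCDHGA7 run through all days, and PCDHGC4 darkens from day 12.

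The time course without Pb shows which of these genes move as the cells differentiate. From day 6 to day 12, 7 members rose and 28 fell, led by the cadherins CDH15 and CDH11 upward and by PCDHGC4 downward. This was 60.3% of the 58, beside 56.2% of all genes tested, 21.6% higher and 34.6% lower (limma on log2(CPM + 1), Benjamini-Hochberg adjusted p under 0.05 over all 15263 genes). The median change over members was -0.32 on the log2 scale and -0.11 over all genes. Under rescaling of each library by median ratios, 8 members were higher and 20 lower. In bulk RNA a lower level cannot be told apart from fewer cells that use the gene.

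CDH15, M-cadherin, known from muscle and cerebellum (chr16:89171748-89195492 in RefSeq GRCh38), was close to absent at the start. Its 3 libraries without Pb had 0.410, 0.696 and 0.438 CPM at day 6, 30.4, 28.1 and 25.1 CPM at day 12, 11.4, 15.0 and 12.2 CPM at day 15, and 6.09, 5.48 and 5.06 CPM at day 18. Days 12, 15 and 18 overlapped neither each other nor day 6, and day 12 stood highest. The mean CPM at day 12 was 54.2 times that of day 6, with a log2(CPM + 1) change of 4.25 ± 0.14 (SE, limma adjusted p = 3.1e-29), and the change to day 18 was 2.11 ± 0.14 (adjusted p = 1.5e-17).

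CDH11 (chr16:64943753-65123744) was lower at day 9 and higher at days 12 and 15 than at day 6. Without Pb it had 45.8, 47.2 and 38.0 CPM at day 6, 24.6, 23.5 and 18.9 CPM at day 9, 181, 185 and 192 CPM at day 12, 121, 130 and 124 CPM at day 15, and 37.9, 52.9 and 58.3 CPM at day 18. Days 6 and 18 overlapped and all other pairs of days were apart. Against day 6 the log2 change was -0.94 ± 0.11 at day 9 (limma adjusted p = 1.5e-08), 2.07 ± 0.11 at day 12 (adjusted p = 1.2e-21), 1.50 ± 0.11 at day 15 and 0.17 ± 0.11 at day 18 (adjusted p = 0.17).

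CDH2 (chr18:27932879-28177130) moved the other way and less far. Its libraries without Pb had 234, 231 and 242 CPM at day 6, 156, 162 and 177 CPM at day 12, and 201, 198 and 187 CPM at day 15. At day 18 replicate 1 had 130 CPM and the other two 204 and 206 CPM. The log2 change at day 12 was -0.51 ± 0.10 (limma adjusted p = 3.3e-05), and that at day 18 went from -0.42 ± 0.10 with all libraries to -0.20 without replicate 1 (adjusted p = 0.0512). CDH24, a type II cadherin (chr14:23047067-23057520), fell, from 35.5, 39.7 and 31.8 CPM at day 6 to 17.9, 24.5 and 21.3 CPM at day 12 and 11.8, 11.5 and 12.5 CPM at day 18. The day 18 change was -1.50 ± 0.20 (adjusted p = 1.6e-08) and these groups did not overlap. CDH4, R-cadherin, stayed below 5 CPM and was the fourth by p at day 12, with a log2 change of 1.58 ± 0.17 (adjusted p = 7.8e-11).

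Of the 5 delta protocadherins 3 fell and none rose at day 12. PCDH9 (chr13:66302834-67230336) had 2.19 ± 0.0753 CPM per kb at day 6 (SD, n = 3), below PCDH18, PCDH1 and PCDH17. Not divided by length, its day 6 mean was 67.6 CPM against 23.0 CPM for PCDH18, whose length was 6686 bases against 30800. PCDH9 went from 68.6, 64.9 and 69.3 CPM at day 6 to 109, 99.7 and 99.4 CPM at day 9, then to 42.6, 40.8 and 45.2 CPM at day 12 and back to 57.6, 78.1 and 72.2 CPM at day 18. Day 9 lay above and day 12 below all other days. The log2 changes were 0.60 ± 0.09 at day 9 (limma adjusted p = 2.3e-06), -0.65 ± 0.09 at day 12 (adjusted p = 1.1e-08) and 0.02 at day 18, which did not pass. PCDH17, which has been tied to axon extension and synapses, fell from 23.0, 24.9 and 22.1 CPM at day 6 to 17.3, 13.4 and 17.9 CPM at day 9 and 9.35, 9.31 and 13.0 CPM at day 12. Its log2 change was -0.51 ± 0.12 at day 9 (adjusted p = 0.0056, and 0.113 without replicate 2 of day 9) and -1.09 ± 0.12 at days 12 and 18. PCDH1 fell at day 18, by 0.65 ± 0.15 on the log2 scale. PCDH15, which pairs with CDH23 in the tip links of hair cells, was the fourth by p at day 15 with a log2 change of 1.19 ± 0.14 (adjusted p = 2.6e-10) at under 5 CPM.

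Calls were counted for each clustered array, beside the shares of all genes given above for day 12 (21.6% higher and 34.6% lower), and the arrays were not tested against each other. Among alpha genes the 2 that rose at day 12, of 10, were the C-type isoforms PCDHAC1 and PCDHAC2, and 3 fell. Among beta genes 9 of 15 fell and none rose, and among gamma genes 11 of 16 fell and none rose. At day 15, beside 26.2% of all genes higher and 32.2% lower, the counts were 3 higher and 1 lower of alpha, 1 and 2 of beta, and 0 and 6 of gamma genes. At day 18, beside 32.1% and 34.7%, they were 4 and 1 of alpha, 1 and 9 of beta, and 0 and 7 of gamma genes.

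PCDHGC4 fell more than any other clustered gene of at least 5 CPM. It had 51.0, 43.9 and 46.2 CPM at day 6 without Pb, 43.8, 34.9 and 37.0 CPM at day 9, 11.3, 10.4 and 10.2 CPM at day 12, 10.9, 9.66 and 8.63 CPM at day 15, and 9.70, 10.8 and 14.0 CPM at day 18. Every library of days 12 to 18 was below every library of days 6 and 9. The mean at day 6 was 4.42 times that at day 12, with a log2 change of -2.04 ± 0.13 (limma adjusted p = 7.2e-19), and its share of gamma reads went from 13.9 ± 0.657% at day 6 to 5.63 ± 0.640% at day 18 (SD, n = 3).

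PCDHGC3, its C-type neighbour, changed by -0.42 ± 0.09 at day 12 and -0.79 ± 0.09 at day 18 (limma adjusted p = 5.3e-10). PCDHGB7 went from 111, 104 and 94.7 CPM at day 6 to 61.8, 62.4 and 65.6 CPM at day 12, a log2 change of -0.69 ± 0.13. At day 18 its change was -0.49 ± 0.13 with all libraries and -0.27 without replicate 1 of that day (adjusted p = 0.0549). PCDHGA7 changed by -0.70 at day 12, PCDHGB2 by -1.44 and PCDHGA4 by -0.89. All gamma genes together summed to 340 ± 11.4 CPM at day 6, 199 ± 6.34 CPM at day 12 and 207 ± 50.9 CPM at day 18 (SD, n = 3).

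Among alpha genes PCDHAC1 dipped and then rose. It had 10.5, 10.8 and 10.7 CPM at day 6, 6.71, 6.61 and 6.62 CPM at day 9, 27.1, 23.1 and 26.9 CPM at day 12, and 16.8, 22.1 and 27.4 CPM at day 18. The replicates of days 6 and 9 were close together and those of day 18 wide apart. The log2 changes were -0.61 ± 0.14 at day 9 (limma adjusted p = 0.0029), 1.19 ± 0.14 at day 12 (adjusted p = 3.3e-10) and 0.96 ± 0.14 at day 18.

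PCDHAC2 rose from 46.9, 41.0 and 39.6 CPM at day 6 to 63.0, 56.6 and 52.2 CPM at day 12, by 0.42 ± 0.09 on the log2 scale, and at day 18 the change was -0.04. PCDHA8, an isoform of the stochastic kind, was 11.0, 10.2 and 13.8 CPM at day 6 and 22.9, 23.3 and 22.6 CPM at day 18 (log2 change 0.93 ± 0.11, limma adjusted p = 5.4e-10). PCDHA4 fell at day 12 by 0.67 ± 0.11 on the log2 scale and was higher by 0.24 ± 0.11 at day 18. PCDHA11 fell at day 18, by 0.77 ± 0.19 (limma adjusted p = 0.00034). PCDHA3 had 4.15 ± 0.572 CPM at day 6 and fell by day 12, when it had 2.08 ± 0.494 CPM (SD, n = 3), without overlap (log2 change -0.74 ± 0.20, adjusted p = 0.0011), and its day 18 change of -0.37 did not pass. PCDHA12 changed by 0.58 ± 0.18 at day 18, a call that ended without replicate 3 of day 6 (0.40, adjusted p = 0.0707). The alpha genes summed to 105 ± 2.66 CPM at day 6, 120 ± 4.28 CPM at day 12 and 129 ± 13.2 CPM at day 18 (SD, n = 3).

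In the beta array PCDHB6 was higher at days 15 and 18 than at day 6. It went from 30.1, 24.5 and 25.3 CPM at day 6 to 39.2, 40.2 and 41.9 CPM at day 15 and 31.1, 42.2 and 37.7 CPM at day 18, and was the 1 beta gene to rise at either day (log2 change 0.59 ± 0.10 at day 15, limma adjusted p = 9.9e-07, and 0.45 ± 0.10 at day 18). PCDHB14 fell at day 18 by 0.51 ± 0.08 and PCDHB10 fell at day 12 by 0.55 ± 0.10. PCDHB12 had 8.65, 8.20 and 7.84 CPM at day 6 and 3.47, 5.14 and 5.97 CPM at day 18, a fall of 0.68 ± 0.15 (limma adjusted p = 1.1e-04), and one of 0.50 without replicate 1 of day 18. PCDHB9 changed by -0.33 ± 0.14 at day 12 (adjusted p = 0.0350), a call that ended without any 1 of 4 libraries, and by -0.05 at day 18. Calls at day 18 for PCDHB3, PCDHB10 and PCDHB15 ended without replicate 1 of day 18, with changes of -0.20, -0.03 and -0.11 and adjusted p of 0.0553, 0.753 and 0.447.

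**Figure D2:**
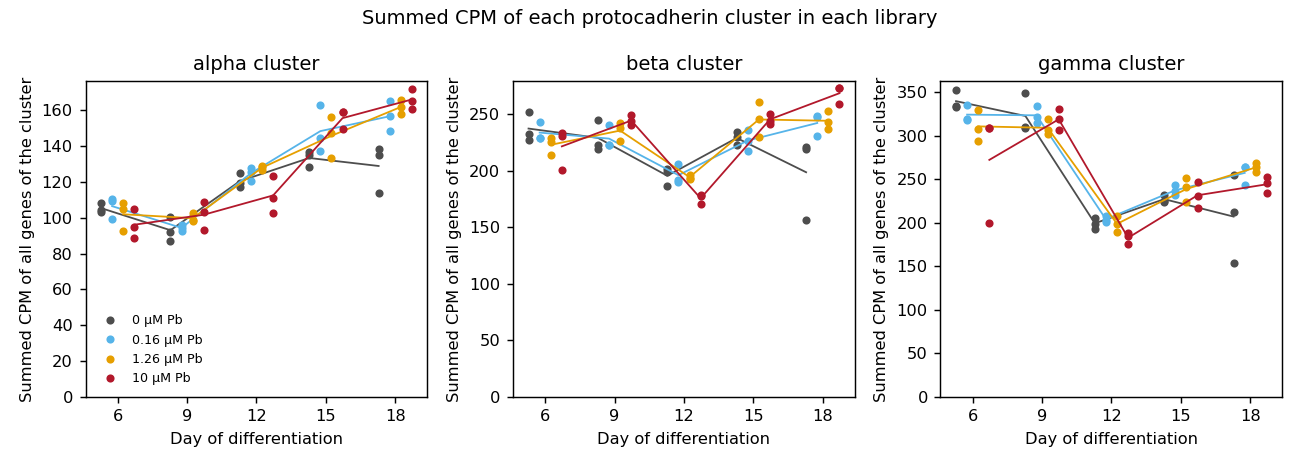
Summed CPM of all genes of the alpha, beta and gamma arrays (panels) in each library (points) by day, with lines through the means of the 3 libraries of each dose (colour). Without Pb the mean alpha sum went from 105 to 129 CPM and the mean gamma sum from 340 to 207 CPM between days 6 and 18, and replicate 1 of this group was the lowest day 18 library in each panel.

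At day 9 only 4 members passed, CDH11, PCDH17 and PCDHAC1 lower and PCDH9 higher, beside 5.14% of all genes (2.63% higher and 2.51% lower). At day 15, 10 rose and 14 fell, beside 58.3% of all genes called (26.2% higher and 32.2% lower), and under a correction for transcript length and GC content 12 were higher and 11 lower. At day 18, 11 rose and 21 fell, beside 66.8% of all genes (32.1% and 34.7%). The member share was 41.4% at day 15 and 55.2% at day 18, below the share over all genes in both. These comparisons share the day 6 libraries. CDH3, P-cadherin of basal epithelium, was looked at after its values were seen because of the epithelial markers, and had 1.83, 1.40 and 3.25 CPM at day 18 against 1.23, 1.18 and 0.511 CPM at day 6 (log2 change 0.66 ± 0.18, limma adjusted p = 0.0011). All 7 epithelial markers tested were higher at day 18, none of the 8 lacked reads there, and their part in the day 18 changes was not tested.

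Genes that act with these proteins were followed in the same comparisons. A list of 15 genes held CTCF, cohesin and its partners, and further regulators, among them SMCHD1, DNMT3B, SETDB1 and WIZ. Of these 15 genes 13 were lower and none higher at day 12, beside 34.6% and 21.6% of all genes. At day 18, 14 were lower and none higher, beside 34.7% and 32.1%. CTCF changed by -0.57 at day 12 and -1.05 at day 18, SMCHD1, a repressor of the clusters, by -0.40 and -0.97, and the cohesin subunit RAD21 by -0.63 and -0.61. Of 10 catenins and related genes tested, 3 were higher and 3 lower at day 12, and 3 and 2 at day 18, a called share close to that of all genes at day 12 (56.2%) and below it at day 18 (66.8%), among them JUP (plakoglobin) with 1.00 and the neural alpha-catenin CTNNA2 with 0.94. Of 7 repressors of cadherin genes tested, 5 were lower and 1 higher at day 12, with SNAI1 at -1.87 and TWIST2 at 3.32.

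The lists that follow lay below the 56.2% of all genes called at day 12. Among 9 genes of cadherin cleavage 2 were higher and 2 lower at day 12, including the sheddase ADAM10 with -1.10. Among 13 other members of the cadherin superfamily tested, 2 were higher and 4 lower at day 12, with the giant cadherin FAT1 at 3.21 and the calsyntenins CLSTN3 at 1.49 and CLSTN2 at -1.40. Among 13 signalling partners of protocadherins 1 was higher and 4 lower at day 12.

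**Figure D3:**
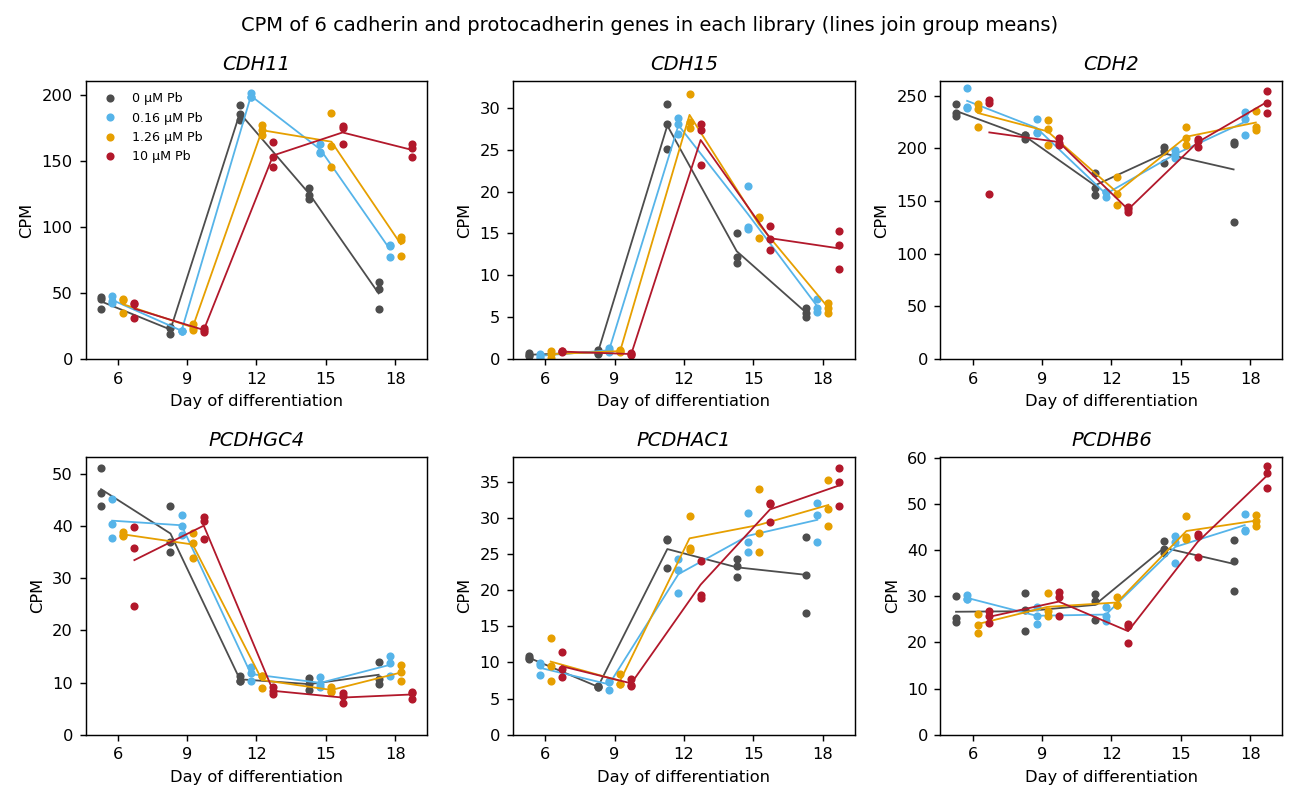
CPM of CDH11, CDH15, CDH2, PCDHGC4, PCDHAC1 and PCDHB6 (panels) in each of 60 libraries (points) by day and Pb dose (colour), with lines through group means. The day 18 mean of CDH11 was 49.7 CPM without Pb and 158 CPM at 10 µM, with 186 and 154 CPM at day 12.

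Pb and Pb-free dishes were compared within each day. From day 6 to day 15 the members moved little. At 0.16 µM limma called none of the 58 on days 6, 9, 12 and 15 (1, 4, 4 and 3 had an unadjusted p under 0.05), beside 0%, 0.0131%, 0.0197% and 0.0131% of all genes, and edgeR called none either. At 1.26 µM limma called none on these days (4, 7, 2 and 7 by unadjusted p), beside 0%, 0.4%, 0.0459% (0.0197% higher and 0.0262% lower) and 1.26% of all genes, and edgeR called 1, at day 15.

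At 10 µM, PCDHGC4 was lower at day 6, with 39.9, 35.9 and 24.6 CPM against 51.0, 43.9 and 46.2 CPM without Pb, groups that did not overlap. The log2 difference was -0.50 ± 0.13 (limma adjusted p = 0.0437), and it was -0.30 without replicate 3 of the 10 µM group, 1 of the 2 libraries low in long transcripts (adjusted p = 0.567). This was the 1 member called, beside 0.655% of all genes (0.295% higher and 0.36% lower), and the call also ended without any 1 of the 3 Pb-free libraries. At day 9 limma and edgeR called none of the 58 (7 by unadjusted p), beside 1.41% of all genes (0.446% higher and 0.963% lower).

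At day 12 the 1 member called at 10 µM, beside 5.37% of all genes (3.03% higher and 2.34% lower), was PCDHB6. It had 23.9, 19.8 and 23.6 CPM against 24.9, 28.9 and 30.5 CPM without Pb (log2 difference -0.31 ± 0.10, limma adjusted p = 0.0437). The call ended without replicate 2 or 3 of either group, for example at -0.23 (adjusted p = 0.265) without replicate 2 of the 10 µM group. CDH11 had 153, 145 and 164 CPM against 181, 185 and 192 CPM, groups that were apart, with a log2 difference of -0.27 ± 0.11 that did not pass (adjusted p = 0.14).

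At day 15 CDH11 was the 1 member called at 10 µM, beside 5.68% of all genes (2.5% higher and 3.18% lower), and now it was higher. Its libraries had 163, 177 and 175 CPM with 10 µM Pb against 121, 130 and 124 CPM without, groups that did not overlap, with a log2 difference of 0.45 ± 0.11 (limma adjusted p = 0.0054). PCDHAC1 had 29.5, 32.1 and 32.0 CPM against 24.3, 23.4 and 21.8 CPM, groups that did not overlap either, and did not pass. With edgeR, or after rescaling by median ratios, 1 member was called higher and 1 lower.

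At day 18, 10 µM Pb went with higher levels of 17 members and lower levels of 2, beside 28.9% of all genes called (12.1% higher and 16.9% lower). The median difference was 0.19 on the log2 scale over the 58 and -0.05 over all genes. CDH11 led, followed by CDH15, PCDH12 and the beta genes PCDHB14 and PCDHB6, while PCDHGC4 and CDH24 were lower. By group, 2 of 4 type I cadherins, 2 of 5 type II cadherins, 1 of 5 delta protocadherins, both PCDH12 and PCDH15, 2 of 10 alpha, 7 of 15 beta and 1 of 16 gamma genes were higher. Without replicate 1 of the Pb-free group, 13 members were called, 11 of them higher, and without both libraries low in long transcripts 14 were, 12 of them higher. With the correction for transcript length and GC content 19 were, 17 of them higher. These counts are of members alone, and counts over all genes move with the setting too. With edgeR 21 members were called beside 4072 of all genes, against 19 beside 4418 with limma. With all other groups left out of the fit 7 members were called, CDH11 among them (limma adjusted p = 0.00019). The count over all genes in that fit is not given here, so the 7 cannot be read as a result about the members.

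CDH11 had 159, 153 and 163 CPM at 10 µM against 37.9, 52.9 and 58.3 CPM without Pb, and the lowest Pb library was above the highest Pb-free one by more than the range of either group. The ratio of the means was 3.19, and the log2 difference was 1.67 ± 0.11 (limma adjusted p = 6.6e-17). Without replicate 1 of the Pb-free group it was 1.49. Between days 15 and 18 its mean went from 172 to 158 CPM at 10 µM and from 125 to 49.7 CPM without Pb. CDH15 had 13.7, 15.2 and 10.7 CPM against 6.09, 5.48 and 5.06 CPM (ratio of means 2.38, log2 difference 1.11 ± 0.14, adjusted p = 4.3e-08).

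PCDH12, a protocadherin best known from endothelium and placenta (chr5:141943581-141958202), had 8.52, 6.01 and 8.22 CPM at 10 µM against 1.80, 3.10 and 2.35 CPM without Pb. The groups were far apart, and the log2 difference was 1.33 ± 0.19 (limma adjusted p = 4.1e-07). Of 6 endothelial markers CLDN5 alone was above 1 CPM at day 18, and the summed level of the 6 was 5.62 to 8.45 CPM at 10 µM against 12.5 to 17.4 CPM without Pb. PCDH18, a delta protocadherin (chr4:137518918-137532494), had 41.3, 35.2 and 34.5 CPM against 11.9, 17.9 and 31.5 CPM, the Pb-free libraries being spread widely. Its difference was 0.93 ± 0.20 (adjusted p = 0.00049) and 0.61 without replicate 1, past the threshold in both.

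CDH2 had 243, 234 and 255 CPM against 130, 204 and 206 CPM, and its log2 difference of 0.47 ± 0.10 (limma adjusted p = 0.00046) was 0.25 without replicate 1 of the Pb-free group (adjusted p = 0.0457). CDH24 was lower, at 6.87, 6.16 and 7.17 CPM against 11.8, 11.5 and 12.5 CPM, without overlap (-0.75 ± 0.20, adjusted p = 0.0047).

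Of the clustered genes at 10 µM and day 18, PCDHB6 had 56.6, 58.3 and 53.3 CPM against 31.1, 42.2 and 37.7 CPM (log2 difference 0.60 ± 0.10, limma adjusted p = 4.4e-06) and PCDHB14 had 47.3, 48.8 and 43.5 CPM against 26.6, 34.3 and 36.0 CPM (0.52 ± 0.08, adjusted p = 1.6e-06). Neither pair of groups overlapped. The other beta genes of at least 5 CPM that passed were PCDHB3 with 0.46, PCDHB4 with 0.45, PCDHB15 with 0.45 and PCDHB10 with 0.34. Without replicate 1 of the Pb-free group PCDHB3 and PCDHB4 passed at 0.30 each (limma adjusted p = 0.0182 and 0.0221), and PCDHB15 and PCDHB10 no longer passed, at 0.24 (adjusted p = 0.165) and 0.10 (adjusted p = 0.471).

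PCDHAC1 had 36.9, 31.6 and 35.0 CPM at 10 µM against 16.8, 22.1 and 27.4 CPM without Pb at day 18 (0.64 ± 0.14, limma adjusted p = 0.00034), without overlap. PCDHAC2 differed by 0.36 ± 0.09 (adjusted p = 0.0016), and by 0.25 without replicate 1 of the Pb-free group (adjusted p = 0.0502). PCDHGC3 was higher by 0.42 ± 0.09 (adjusted p = 0.00068), and by 0.25 without replicate 1 (adjusted p = 0.0455). PCDHGC4 was lower than without Pb, with 8.24, 6.87 and 8.07 CPM against 9.70, 10.8 and 14.0 CPM and no overlap (-0.51 ± 0.13, adjusted p = 0.0020, and -0.61 without replicate 1), so the neighbouring C-type genes PCDHGC3 and PCDHGC4 differed from the controls in opposite directions. All beta genes summed to 273, 273 and 259 CPM at 10 µM and to 156, 221 and 219 CPM without Pb, and all gamma genes to 246, 253 and 234 CPM and to 153, 213 and 255 CPM, so the gamma sums overlapped.

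**Figure D4:**
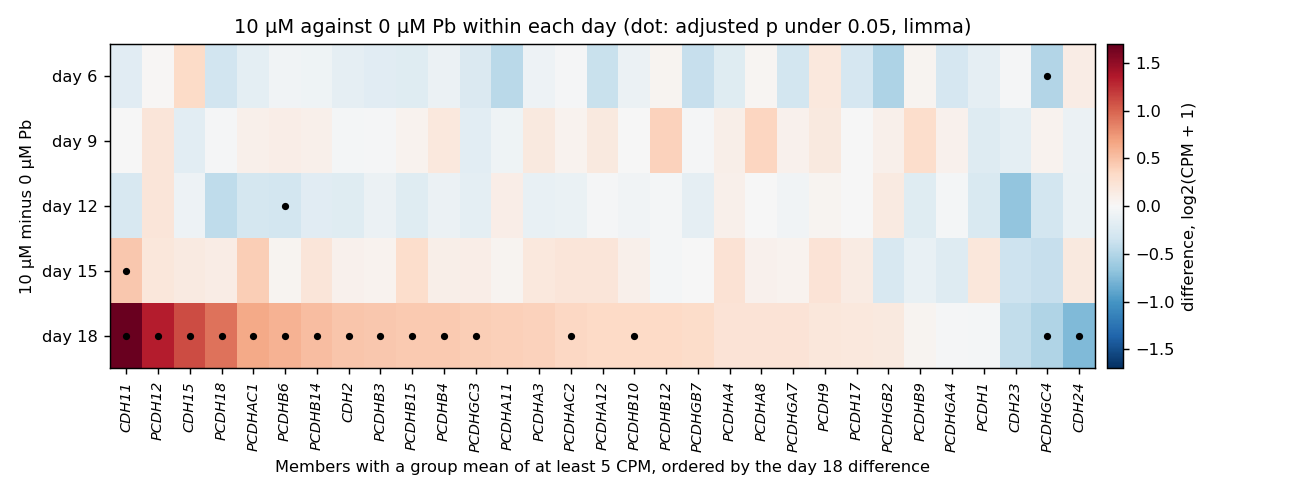
Difference between 10 µM and 0 µM Pb on the log2(CPM + 1) scale (colour) within each day (rows) for the 31 members with a group mean of at least 5 CPM (columns, ordered by day 18), with a dot where limma's adjusted p is under 0.05. The day 18 row holds 16 dots, CDH11 at 1.67 being the highest value, and each of the days 6, 12 and 15 holds 1.

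The other gene lists are read against the 28.9% of all genes called at 10 µM and day 18 (12.1% higher and 16.9% lower). Of the 15 genes of the list with CTCF, cohesin and further regulators 1 was lower, SMC3 with -0.35, and none higher. Of 10 catenins tested 4 were higher, the p120 catenin CTNND1 with 0.58, VCL with 0.56, CTNNA2 with 0.42 and CTNNA1 with 0.17, and CTNNAL1 was lower with -0.30. Of 13 other superfamily members 4 were higher, FAT1 with 0.50, CLSTN3 with 0.49, CDHR1 with 0.70 and RET with 0.55. Of 7 repressors 1 was higher and 2 lower, with SNAI2 at -0.75, of 9 cleavage genes 4 were higher and 1 lower, with ADAM10 at 0.65, and of 13 signalling partners 4 were higher and 2 lower. By count of calls in either direction, the CTCF and cohesin list was thus below the share of all genes and the catenin, cleavage, repressor and signalling lists were above it, while the superfamily list was close to it. Direction is not part of this count, and the 4 superfamily calls named above were all higher, beside 12.1% of all genes higher. The lists hold 7 to 15 genes, so a few genes decide the side, and no list was tested against that share.

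The 12 mesenchymal markers, of which CDH11 is not one, summed to 322 to 323 CPM at 10 µM against 393 to 400 CPM without Pb at day 18, with 1 of the 12 at no read in both groups. None of the 10 tested was higher and 3 were lower. The 10 neuronal markers summed to 6082 to 6314 CPM against 6430 to 6985 CPM, and the epithelial ones to 99.1 to 117 CPM against 99.6 to 155 CPM. Their part in the Pb differences was not tested.

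With limma the lower doses gave calls at day 18 alone. At 0.16 µM 10 members were higher and none lower, beside 6.34% of all genes called (5.19% higher), and at 1.26 µM 18 were higher and none lower, beside 12.4% (9.1% higher). All 3 doses share the Pb-free libraries. Without replicate 1 of the Pb-free group, in which long transcripts were low, 1 member was called at each of these doses, CDH11 both times. Over the 10 lower-dose within-day contrasts together this left 3 member calls, beside 390 calls over all genes. Without both libraries low in long transcripts CDH11 alone was called at 0.16 µM, and CDH11, PCDH12, PCDH17 and PCDHA11 at 1.26 µM. Without replicate 3 of the Pb-free group 21 members were called at 0.16 µM and 20 at 1.26 µM, counts of members alone. With the correction for transcript length and GC content 7 and 18 members were called, all higher. Of these, 5 and 17 were among the members called without the correction. With edgeR 6 and 16 members were called, beside 796 and 1834 of all genes. When the other groups were left out of the limma fit no member was called (CDH11 adjusted p = 0.482 and 0.352).

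CDH11 had 86.6, 85.7 and 77.6 CPM at 0.16 µM and 92.7, 90.0 and 78.2 CPM at 1.26 µM on day 18, against 37.9, 52.9 and 58.3 CPM without Pb. Neither group overlapped the Pb-free group or the 10 µM group, and the 2 lower doses overlapped each other. The log2 differences were 0.75 ± 0.11 (limma adjusted p = 1.6e-04) and 0.81 ± 0.11 (adjusted p = 2.4e-05). Without replicate 1 of the Pb-free group they were 0.57 and 0.63, still past the threshold.

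PCDH12 had 4.64, 5.38 and 4.13 CPM at 0.16 µM and 3.23, 6.55 and 5.51 CPM at 1.26 µM, all above the Pb-free 1.80, 3.10 and 2.35 CPM, with log2 differences of 0.75 and 0.81 ± 0.19. Without replicate 1 these were 0.62 and 0.68 and no longer passed. PCDH17 had 16.4, 15.1 and 15.9 CPM at 1.26 µM against 9.13, 10.8 and 11.3 CPM, without overlap (0.56 ± 0.12, limma adjusted p = 0.0029), and 0.48 without replicate 1 (adjusted p = 0.0826). PCDHA11 had 6.38, 6.70 and 5.11 CPM at 0.16 µM and 5.78, 7.06 and 7.19 CPM at 1.26 µM against 3.44, 3.61 and 3.56 CPM, with differences of 0.63 and 0.75. For PCDHA11 leaving out replicate 1 left the differences at 0.62 and 0.74 and raised the adjusted p to 0.365 and 0.0883. PCDHA3 was higher by 0.62 ± 0.20 at 1.26 µM (adjusted p = 0.0284), and by 0.34 without replicate 1 (adjusted p = 0.462).

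**Figure D5:**
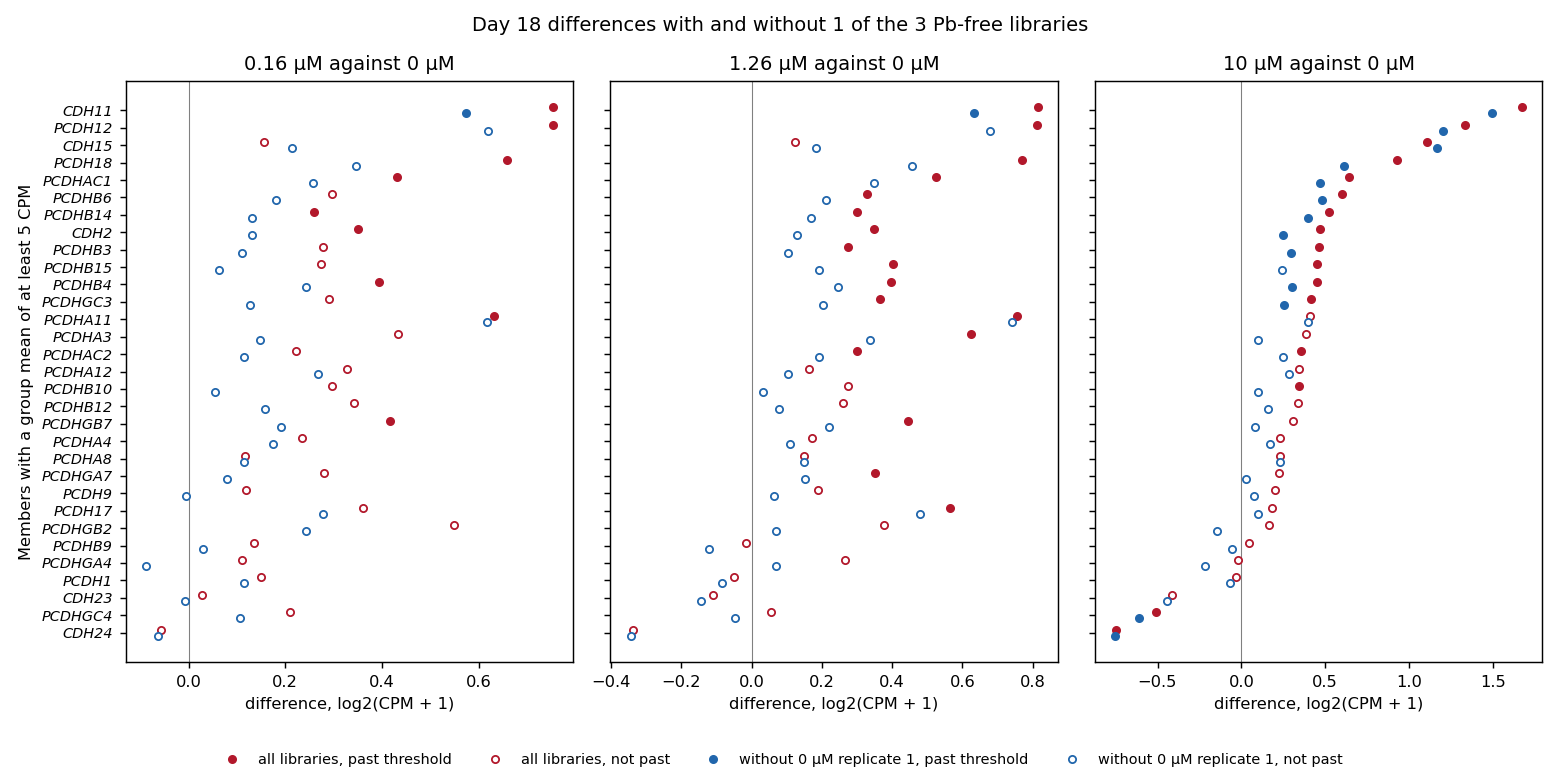
Difference from 0 µM at day 18 on the log2(CPM + 1) scale for the 31 members with a group mean of at least 5 CPM at each dose (panels), with all libraries (red) and without replicate 1 of the 0 µM group (blue), filled where limma's adjusted p is under 0.05. At 0.16 and 1.26 µM CDH11 is the 1 filled blue point, at 0.57 and 0.63, and at 10 µM CDH11 moves from 1.67 to 1.49.

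Averaged over the differences within the 5 days, 10 µM gave 6 higher and 2 lower members, 13.8% of the 58 beside 15.1% of all genes (6.93% higher and 8.13% lower). CDH11 was higher by 0.33 ± 0.05 on the log2 scale (limma adjusted p = 1e-06), PCDH12 by 0.39 ± 0.09, CDH15 by 0.27 ± 0.06, PCDH9 by 0.16 ± 0.04, PCDHA8 by 0.14 ± 0.05 and PCDHB14 by 0.11 ± 0.04. PCDHGC4 was lower by 0.33 ± 0.06 (adjusted p = 1.7e-05) and CDH23, a component of tip links, by 0.32 ± 0.11. The calls for PCDHB14, CDH23 and PCDHA8 ended without any 1 of 7, 9 and 19 of the 30 libraries. Without day 18 the CDH11 mean was -0.01 (adjusted p = 0.956) and 3 members were called, 1 higher and 2 lower.

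At 1.26 µM the mean was higher for CDH11, PCDH17, PCDH12 and PCDH9, beside 3.84% of all genes (1.67% higher and 2.17% lower), and at 0.16 µM for CDH11 alone, beside 0.124% (0.059% higher and 0.0655% lower). The 0.16 µM call for CDH11 ended without any 1 of 4 libraries, replicate 3 of the Pb-free groups of days 6 and 9, replicate 1 of the Pb-free day 15 group and replicate 2 of the day 6 group at 0.16 µM (adjusted p up to 0.0575). At 1.26 µM 2 members passed, beside 464 of all genes, when replicate 1 of the Pb-free day 18 group was left out. When replicate 3 of that group was left out 8 passed, beside 1175 of all genes. The mean within-day slope per dose step, from 0 for 0 µM to 3 for 10 µM, was positive and past the threshold for 5 members and negative for 1, beside 15.7% of all genes (7.26% positive and 8.39% negative). It was 0.10 ± 0.02 for CDH11 (limma adjusted p = 3.2e-06), -0.11 ± 0.02 for PCDHGC4 (adjusted p = 3.5e-06), and positive for PCDH9, PCDH12, CDH15 and PCDHB14. With edgeR 5 were positive and 2 negative, and CDH15 did not pass. Without day 18 the slope of CDH11 was -0.01 and 1 member was positive and 4 negative.

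A test of whether the 10 µM difference changed with the day passed for 18 members, beside 21.7% of all genes, and the test over all doses passed for 9, beside 11.8%. CDH11 had the smallest adjusted p in both, 7.97e-14 and 3.49e-11 (limma moderated F test). Without replicate 1 of the day 18 Pb-free group 14 and 5 members passed. The 5 stood beside 1468 of all genes, against 9 beside 1806 with all libraries. Without day 18, 4 members passed at 10 µM, among them CDH11 (0.00262), PCDHB14 (0.0346) and PCDHAC1 (0.0451), and CDH11 alone passed over all doses (0.0217). The 14 and the counts without day 18 are of members alone.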

How the data were processed

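RNA-seq of 60 SH-SY5Y libraries was analysed. The authors deposited 1 table of CPM values for 37334 genes, made, per the submitters' processing notes, with STAR and featureCounts on GRCh38 after FastQC and MultiQC. Annotation, strand setting and the treatment of reads shared by genes are not given in the sources used here. Of the deposited CPM values 100% were whole multiples of 1 read within 0.01 read, so counts could be recovered. The table held 0 columns of other samples.

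Genes that reached 1 CPM in 3 or more libraries (15263) were analysed as log2(CPM + 1) with limma 3.58.1 in R 4.3.3, with 1 mean per day and dose, all 60 libraries in the fit, an intensity trend and 40 residual degrees of freedom. P-values were two-sided and adjusted by Benjamini-Hochberg over all these genes, with a threshold of 0.05. Contrasts were each day against day 6 at 0 µM, each dose against 0 µM within each day, these differences averaged over the 5 days, the mean slope over dose steps, and moderated F tests of whether Pb differences changed with the day. Errors beside log2 values are standard errors.

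Each of the 31 members with a group mean of at least 5 CPM was named, and CDH11, and for each contrast the 4 members with the smallest p among those past the threshold. The members and lists were chosen with earlier results of these data known. Promoters and positions are from RefSeq.

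Alternatives were a pseudocount of 0.25, no filter, median-ratio rescaling, a replicate block, only the groups compared, a dose scale linear in µM, leaving out day 18, each library or the 2 libraries low in long transcripts, a length and GC correction (splines of 4 degrees of freedom), and edgeR 4.0.16 on the recovered reads, which called 4072 of all genes for 10 µM at day 18. The model was tested on simulated reads with the same dispersion for all genes, for the contrast of 10 µM against 0 µM at day 18 alone. The simulation changed only genes of at least 5 CPM, held no library low in long transcripts and did not cover the F tests.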

Additional observations from a re-analysis of the deposited data

Results flagged for a closer look

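The difference between 10 µM and 0 µM Pb changed with the day, by limma's moderated F test over all 5 days, for 15 members of at least 5 CPM. The adjusted p was 7.97e-14 for CDH11, 2.19e-05 for CDH15, 3.94e-05 for PCDHB14, 4.03e-05 for PCDHB6, 0.000662 for PCDHGC3, 0.000854 for PCDHAC1, 0.0013 for PCDH12, 0.00221 for PCDHB3, 0.00259 for CDH2, 0.00277 for PCDH18, 0.00748 for PCDHB4, 0.00784 for PCDHB15, 0.0221 for PCDHAC2, 0.0423 for PCDHGB7 and 0.0436 for PCDHGA7. The same test over all 3 doses passed for 9 members, with 3.49e-11 for CDH11, 2.3e-05 for CDH15, 0.00051 for PCDHB6, 0.00201 for PCDHB14, 0.0122 for PCDHB3, 0.0199 for PCDHGC3, 0.0304 for PCDHAC1, 0.0437 for PCDH12 and 0.04998 for PCDH18. In all, 18 and 9 members were called, beside 21.7% and 11.8% of all genes. Of these members, 4 and 1 passed when day 18 was left out, counts of members alone without the share over all genes.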

How the results depend on the processing

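Precision is limited by 3 dishes a group, by the low levels of 27 members, and at day 18 by the 0 µM replicate 1 low in long transcripts. Median-ratio rescaling moved the median change of all genes at day 12 from -0.107 to -0.0066. It changed the split of members higher and lower at day 12 from 7 and 28 to 8 and 20, and at day 15 from 10 and 14 to 11 and 11. The calls of named genes were followed through the alternatives and through the fits without 1 library that gave the lowest and the highest value. Of these values 1151 kept their direction and side of the threshold, and 192 kept the direction and lost the call. The other 2 reversed, both without day 18, CDH11 at -0.0074 in the mean 10 µM difference and at -0.0051 in the slope. Calls lost in the remaining fits without 1 library are not in this tally.

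The number of members called for the 0.16 µM mean went from 1 to 0 without the filter or without day 18, and for the 1.26 µM mean from 4 to 2 and to 0. For the 10 µM mean it went from 8 to 3 without day 18. For 10 µM at day 6 it went from 1 to 0 under a pseudocount of 0.25, no filter, the length and GC correction, only the groups compared, or without the 2 libraries low in long transcripts. At day 12 it went from 1 to 0 without the filter or with the length and GC correction, and to 4 without the 2 libraries. At day 15 it went from 1 to 2 under the pseudocount, the rescaling, the length and GC correction, edgeR or only the groups compared, and to 4 without the 2 libraries. At day 18 it went from 19 to 7 with only the groups compared. The calls at 0.16 and 1.26 µM summed over 10 within-day contrasts went from 28 to 6 without the 2 libraries and to 0 with only the groups compared. In alternatives chosen after seeing the data, leaving out day 18 left 4 of 18 members for 10 µM by day and 1 of 9 for all doses by day. The slope, with 5 positive and 1 negative, became 4 and 3 with the linear dose scale and 1 and 4 without day 18. All counts in this paragraph are of members alone, and counts over all genes move with the setting too.

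With 1 library left out at a time, the calls ran from 3 to 5 at day 9, 29 to 32 at day 12, 20 to 26 at day 15 and 30 to 34 at day 18 against day 6. They ran from 0 to 2, 2 to 8 and 6 to 9 for the means at 0.16, 1.26 and 10 µM, and 6 to 9 for the slope. For 10 µM they ran from 0 to 6 at day 6 (6 without replicate 1 and 4 without replicate 2 of the 10 µM group), 0 to 2 at day 9 (1 without replicate 1 at 0 µM, 2 without replicate 2 at 10 µM), 0 to 1 at day 12, 1 to 2 at day 15 (2 without replicate 1 at 10 µM) and 13 to 22 at day 18. They ran from 14 to 21 for 10 µM by day, 5 to 15 for all doses by day and 3 to 42 for the sum over lower doses (5 and 3 without replicate 1, 15 and 42 without replicate 3 of day 18 at 0 µM). Counts over all genes moved too. Without replicate 1 of day 18 at 0 µM, the 5 and 3 members stood beside 1468 and 390 calls over all genes. For 10 µM at day 6 without replicate 1 of the 10 µM group, the 6 members stood beside 1061, against 1 beside 100 with all libraries.

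Whether replicate numbers pair the dishes was not settled. Within a day, the mean residual correlation between groups was 0.028 for the same number and -0.0137 for other numbers. Of 90 pairs with the same number 23 correlated over 0.1, and no such share is at hand for other numbers. The replicate block gave 2 members for 10 µM at day 15 in place of 1, and no other count of members moved by over 1.5 times under it.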
